A study of Homo sapiens with 4 samples.

Results

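The CRKL region of chromosome 22 was examined for binding of TEAD4, a DNA-binding transcription factor that acts with the co-activators YAP and TAZ of the Hippo pathway. The region was taken as the peaks with a midpoint from 20.5 to 22.5 Mb of chromosome 22 (human genome build hg19, bands 22q11.21 and 22q11.22). It held 79 of the 51017 peaks of the series, of which 73 of 39477 were in MKN28 and 6 of 11540 were in SNU216. The region was chosen by the widths of its MKN28 peaks, so these widths, and the scores and counts that come with them, are given as a description without a test. The SNU216 peaks were not used in that choice.

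MKN28 and SNU216 are established human gastric cancer cell lines, and MKN28 is listed in registers of misidentified lines as a derivative of MKN74, another gastric line. Formaldehyde-fixed, sonicated chromatin of each line was precipitated with the same TEAD4 antibody from Abnova, and the labels name no treatment or genetic change. The series has 1 TEAD4 ChIP and 1 input per line. The data are the authors' peak list for each TEAD4 library, with a position and a peak-caller score per peak. No read counts came with them, so sequencing depth is unknown. There are no replicates, so differences between MKN28 and SNU216 carry no test, and intervals below cover counting error only.

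CRKL encodes an adaptor protein of SH2 and SH3 domains that links tyrosine-phosphorylated scaffolds such as BCAR1 and GAB1 to the exchange factors RAPGEF1 and SOS1, and so to RAP1, RAS and RAC signalling in adhesion, migration and growth. The gene is known to be amplified in a subset of gastric and lung cancers. In the RefSeq gene order CRKL lies between SNAP29 and AIFM3. SNAP29 is a SNARE protein of membrane fusion that acts in autophagy. PI4KA is a lipid kinase that makes phosphatidylinositol 4-phosphate for the plasma membrane, and SERPIND1, which encodes the thrombin inhibitor heparin cofactor II, lies within the PI4KA gene on the other strand. On the other side, AIFM3 is followed by LZTR1, which recruits RAS proteins to a CUL3 ubiquitin ligase, and by THAP7. The 22q11.2 region is also known for low-copy repeats, which flank the segment lost in the 22q11.2 deletion syndrome. How reads with several matches were handled is not given in the sources used here.

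Both lines had a TEAD4 peak on the start of CRKL. The CRKL body was taken as 21271714 to 21308037 on chromosome 22, a length of 36.3 kb. The MKN28 peak, at 21270783 to 21272753, was 1971 bp wide and scored 271. It reached from 931 bp before the CRKL start to 1040 bp into the gene. The SNU216 peak, at 21271401 to 21271753, was 353 bp wide and scored 116. It lay wholly inside the MKN28 peak, from 313 bp before the start to 40 bp into the gene. The MKN28 peak was thus 5.58 times as wide as its SNU216 partner, whereas the median over all 6841 SNU216 peaks with an MKN28 partner was 1.38 times (quartiles 1.09 and 1.78). A score depends on the depth of its own library, and the score ratio of this pair, 2.34, lay between the quartiles of all pairs (1.01 and 3.30). The other pairs of the region had higher score ratios, from 5.49 to 23.3.

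The promoter letters of CRKL are shown because this is the one gene start of the region that could be placed under a peak of both lines. They come from RefSeq on GRCh38.p14 (chr22:20917157-20917456, plus strand) and were matched by the gene symbol. They span 250 bases before the annotated start and 50 from it onward, which the capitals mark. They were not aligned with hg19, so their place within each peak was not checked.
CRKL promoter: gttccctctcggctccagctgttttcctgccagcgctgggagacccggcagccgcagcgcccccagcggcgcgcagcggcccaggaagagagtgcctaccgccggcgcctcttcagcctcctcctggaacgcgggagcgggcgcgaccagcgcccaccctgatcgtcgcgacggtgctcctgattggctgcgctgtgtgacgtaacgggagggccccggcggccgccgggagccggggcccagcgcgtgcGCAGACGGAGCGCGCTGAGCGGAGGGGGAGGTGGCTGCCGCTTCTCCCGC
The window was rich in G and C, at 74.7% against a median of 58.7% over all 35116 promoters of the table. The TEAD core motif GGAATG, or CATTCC on the other strand, was not in these 300 bases. It was in 14.0% of all promoters of the same length. The AP-1 motif TGACTCA, or TGAGTCA, was likewise not found, and 4.95% of all promoters held it. Neither motif was found in the promoters of PI4KA, SNAP29 or LZTR1, nor in those of the other 10 neighbouring genes that had an entry in the table. These absences concern the letters of short windows and say nothing of the flanks of the wide MKN28 peak.

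The nearest MKN28 peaks around the gene, 2 on each side of the one on its start, were 1325 to 1482 bp wide. The CRKL body held no MKN28 peak other than the one on its start. The next peak began 1.90 kb past the end of the body, at 21309936 to 21311417, was 1482 bp wide and scored 314. It had no SNU216 counterpart. On the SNAP29 side the nearest peak, at 21228808 to 21230149, was 40.6 kb away from the peak on the start. It was 1342 bp wide although its score was only 71.1. The SNU216 list had no other peak within 10 kb of the CRKL body.

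**Figure D1:**
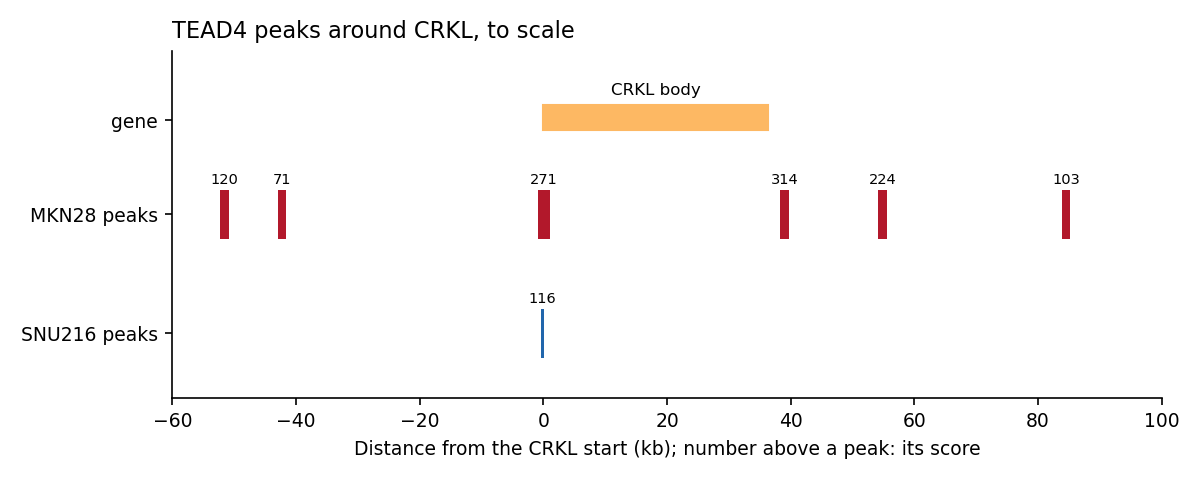
TEAD4 peaks of MKN28 (upper row) and SNU216 (lower row) from 60 kb before to 100 kb after the CRKL start, drawn to scale, with each score above its peak. The MKN28 peak on the CRKL start (score 271) is 1971 bp wide and the SNU216 peak inside it (score 116) is 353 bp wide.

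The MKN28 peaks were wide for their score across the middle of the region. Peak width rises with score in both lists, so each list was split by score rank into 50 groups of equal size and a peak's width was set against the median of its group. A peak with this ratio, the relative width, of at least 2 is called wide. In MKN28, 41 of the 73 peaks were wide, and over the whole MKN28 list the share was 1.2% (475 peaks). In SNU216, 0 of the 6 peaks were wide, and the share over its list was 1.56%. The MKN28 peak on the CRKL start had a relative width of 3.03 and its SNU216 partner one of 0.80.

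These wide peaks formed a run whose distal edge, toward the chromosome end, was sharp and whose proximal edge, toward the centromere, was graded. The run was first located as the consecutive chromosome 22 peaks with the largest sum of log2 relative width minus 0.5. It held 137 peaks from 18663654 to 21911681, a length of 3.25 Mb, and had a median relative width of 1.78. It began 2608 kb before the CRKL start, outside the region examined. Located among the peaks of the region alone, it held 58 peaks from 20679898 to 21911681. The longest stretch of consecutive chromosome 22 peaks that all had a relative width over 1 held 55 peaks, from 20840410 to 21911681. This unbroken stretch was 1071 kb long and had a median relative width of 2.59 (quartiles 1.95 and 3.37). That definition was chosen after the values were seen. CRKL lay well inside it, with 431 kb between the proximal edge and the CRKL start and 604 kb between the CRKL end and the distal edge.

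At the distal edge the change came between neighbouring peaks 21.0 kb apart. Both rules place an edge where relative width falls, so some drop between the neighbours at either edge was given in advance. The last peak inside, at 21909526 to 21911681, was 2156 bp wide with a score of 79.6 and a relative width of 4.37. The peaks before it had relative widths of 1.53 and 2.41. The first peak outside, at 21932712 to 21933269, was 558 bp wide with a score of 196 and a relative width of 0.93, and the next ones had 1.17 and 1.28. Of these neighbours the one outside had the higher score and the smaller width. Between this edge and the end of the region, all 10 MKN28 peaks were under 2 in relative width, from 0.62 to 1.35.

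At the proximal edge of the unbroken stretch, 148 kb without an MKN28 peak separated the neighbours. The first peak inside, at 20840410 to 20841894, was 1485 bp wide with a score of 599 and a relative width of 1.98, and the next ones had 2.82 and 3.42. The last peak outside, at 20692283 to 20692758, was 476 bp wide with a score of 110 and a relative width of 0.90. The peaks before it had 1.39 and 2.57. Of the 8 MKN28 peaks of the region on this side, 1 was wide and the median relative width was 1.34. Between the start of the run and that of the unbroken stretch, 21 of 82 peaks were wide and the median was 1.42. The change at this side was therefore less abrupt, and its position depended on how the run was located.

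**Figure D2:**
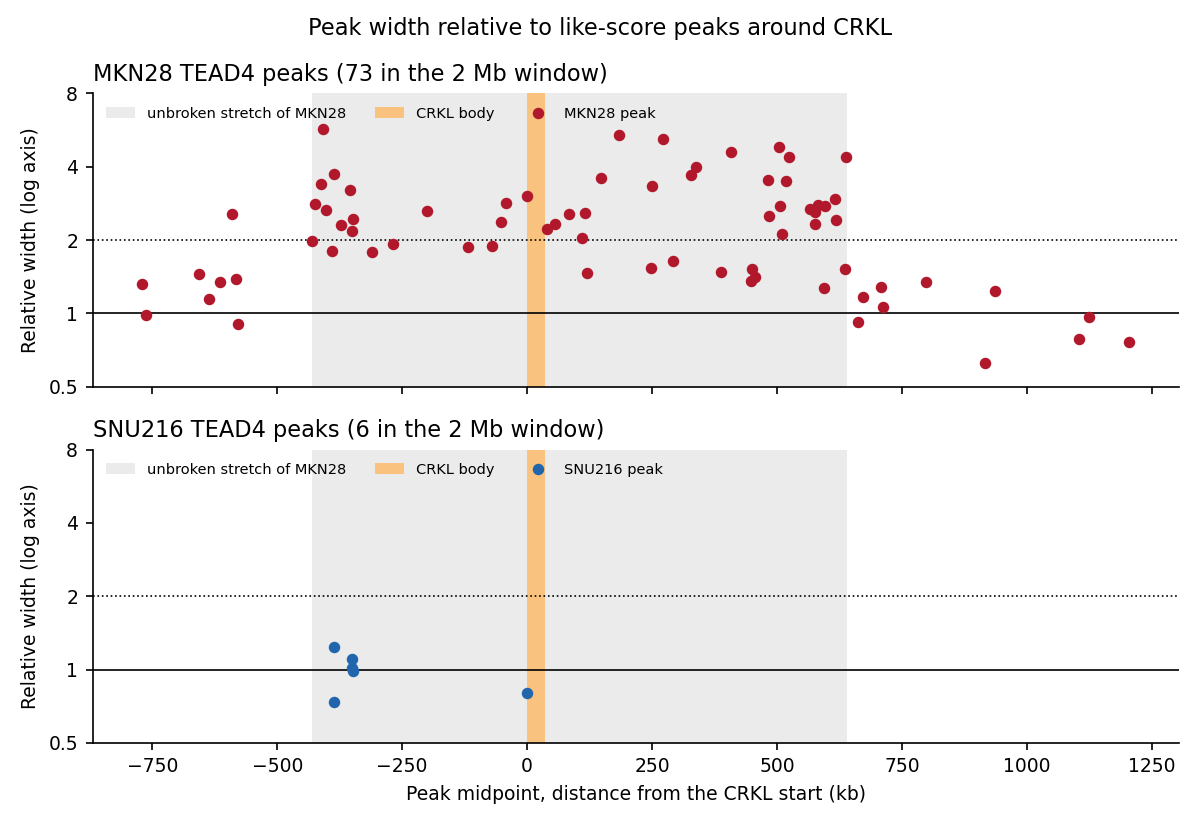
Relative width (log axis) of each TEAD4 peak against the distance of its midpoint from the CRKL start, for MKN28 (upper panel, 73 peaks) and SNU216 (lower panel, 6 peaks). The grey band is the unbroken stretch and the orange band the CRKL body. The MKN28 peaks in the grey band lie between 1.27 and 5.72, and the SNU216 peaks between 0.74 and 1.24.

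The position of the other named genes relative to single peaks could not be given, because the gene table used here is on GRCh38 and no coordinates were moved between builds. CRKL still divides the unbroken stretch into a side before it and a side after it. In the gene order PI4KA, SERPIND1 and SNAP29 lie before CRKL, and AIFM3, LZTR1 and THAP7 after it. As names of the sides, these genes mark only the direction from CRKL. Further genes follow, with MED15 next to PI4KA and P2RX6 next to THAP7, and which genes the stretch reaches could not be told. The PI4KA and SNAP29 side held 18 MKN28 peaks in 431 kb, or 41.7 per Mb, with a median relative width of 2.41. The AIFM3 and LZTR1 side held 36 MKN28 peaks in 604 kb, or 59.6 per Mb, with a median relative width of 2.59. The median relative width was thus over 2 on both sides of CRKL. The 6 SNU216 peaks of the region, counting the one on the CRKL start by its midpoint, were all on the PI4KA and SNAP29 side. The LZTR1 side had 0 SNU216 peaks, and the next SNU216 peak of chromosome 22 began 1.38 Mb after the one at CRKL, at 22655673.

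The median relative width was over 2 in each part of the stretch, and the number of peaks varied. In 4 parts of equal length, from the proximal to the distal end, the median relative widths were 2.53, 2.35, 3.32 and 2.64. The same parts held 14, 8, 11 and 22 MKN28 peaks. The part with CRKL was the poorest in peaks, with 29.9 per Mb, and the most distal part was the richest, with 82.1 per Mb. Single peaks ranged from 630 to 3894 bp in width and from 1.27 to 5.72 in relative width.

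Many long peaks of the MKN28 list lay in the stretch, which the choice of region and stretch by width favoured in advance. Of the 14 peaks of at least 3 kb in the whole list, 5 lay in the unbroken stretch, and of the 47 of at least 2 kb, 15 did. The part of the run before the stretch held 3 of at least 3 kb and 6 of at least 2 kb. The stretch held 0.139% of all MKN28 peaks. Its longest peak, at 20862288 to 20866181, was 3894 bp wide and scored 346. The next was at 21454219 to 21457677, with 3459 bp and a score of 265. A peak at 21541796 to 21544500 was 2705 bp wide with a score of 98.6, near the median of the MKN28 list, 99.8. Peaks of this length were thus not only those of high score.

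Every peak of the stretch had a relative width over 1 by definition, so some excess of width at low, middle and high scores was given in advance. When its 55 peaks were divided by score into 3 groups of 18, 18 and 19, the median widths were 1079 bp (score 52.7 to 103), 1492 bp (104 to 285) and 2006 bp (306 to 3100). The median relative widths of the same groups were 2.48, 2.59 and 2.77. Width still followed score within the stretch, with a Spearman rho of 0.59 over 55 peaks, and with a rho of 0.56 over the 874 other MKN28 peaks of chromosome 22. These peaks share 1 library, so both values are descriptions.

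**Figure D3:**
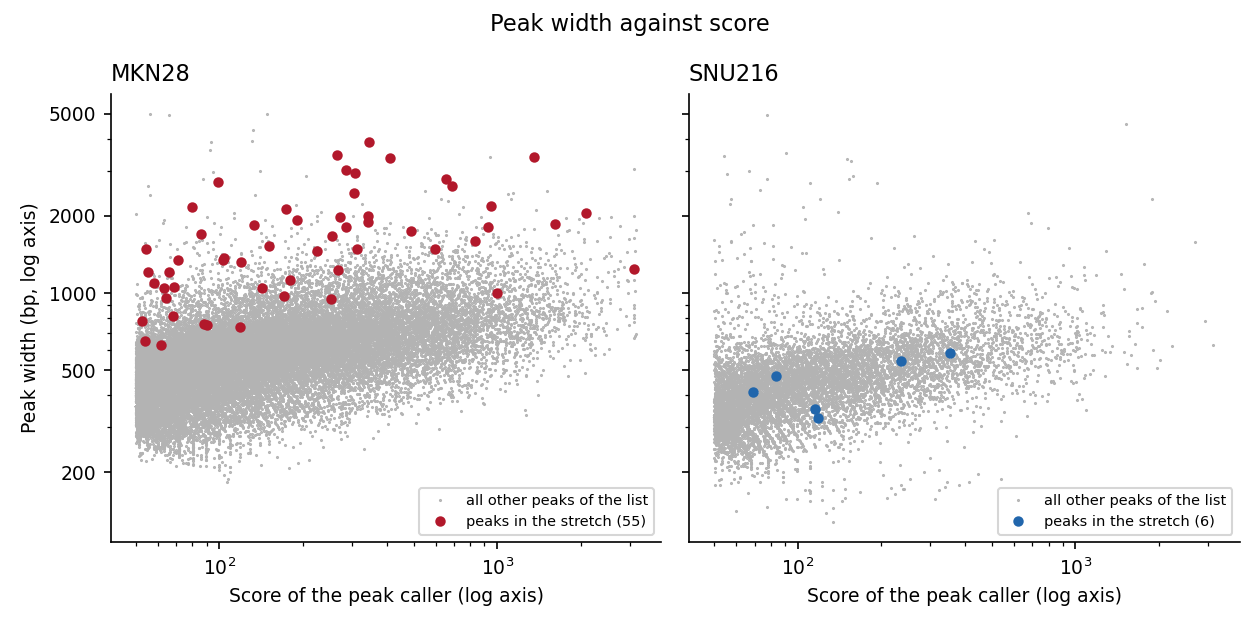
Peak width in bp against the authors' score, both on log axes, for MKN28 (left) and SNU216 (right). Coloured points are peaks inside the unbroken stretch (55 and 6) and grey points all other peaks of the list. Most MKN28 points lie toward the upper border of their list, at low and high scores, and the SNU216 points lie in the body of theirs.

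The MKN28 peaks of the stretch were also higher in score and denser than elsewhere on the chromosome. Their median score was 191 (quartiles 87.0 and 345), against 104 for the other MKN28 peaks of chromosome 22, a ratio of 1.83. There were 51.3 peaks per Mb in the stretch and 25.7 on the rest of the chromosome, a ratio of 2.0. That rest is an average, and some parts of it were denser than the stretch. From 18 to 18.5 Mb after the CRKL start there were 37 MKN28 peaks. The 0.5 Mb before the CRKL start held 18 and the 0.5 Mb after it 22. Together with the widths, this gave a share of covered bases of 8.68% in the stretch and 1.55% outside it, a ratio of 5.61. Since these regions were called in 1 library, the covered length rests on the authors' threshold. In SNU216 the same coordinates held 5.60 peaks per Mb, against 4.70 on the rest of the chromosome, a ratio of 1.19. The SNU216 peaks covered 0.251% of the stretch and 0.196% of the rest. The median SNU216 score was 117 in the stretch and 95.9 on the rest. Averaged over the stretch, density, score and coverage in SNU216 were thus near those of its chromosome, on only 6 peaks. The density was uneven, at 13.9 per Mb before the CRKL start and 0 after the CRKL end.

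The strongest MKN28 peaks of the stretch were on both sides of CRKL. The highest score, 3100, belonged to the peak at 21391606 to 21392843, on the LZTR1 side, 83.6 kb past the CRKL end. It was 1238 bp wide with a relative width of 1.46, one of the lower values of the stretch, and had no SNU216 counterpart. The same score was shared by 10 peaks of the MKN28 list, this one included, so it gives no order among them. A pair of peaks 4 bp apart followed on the PI4KA and SNAP29 side, 347 to 351 kb before the CRKL start. The peak at 20922815 to 20924873 was 2059 bp wide and scored 2095, and the peak at 20920959 to 20922810 was 1852 bp wide and scored 1609. Both had SNU216 peaks inside them. The peak at 21608850 to 21612236, on the LZTR1 side, was 3387 bp wide, scored 1361 and had none. Of the 10 highest-scoring peaks of the 3.25 Mb run, 7 lay in the region examined. An SNU216 peak overlapped 3 of the 10, and 17.1% of all MKN28 peaks of any score. The share among MKN28 peaks of like score was not computed, so these values are not compared.

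Few of the MKN28 peaks had an SNU216 counterpart, while every SNU216 peak of the region fell on an MKN28 peak. Overlap meant at least 1 shared bp. Of the 55 MKN28 peaks of the stretch, 4 overlapped an SNU216 peak (7.27%, exact Clopper-Pearson 95% interval 2.02 to 17.6). The share was 12.5% (10.4 to 14.8) for the other MKN28 peaks of chromosome 22 and 17.1% over the whole MKN28 list. The interval of the stretch held both values, but the stretch was defined after the values were seen. In the 3.25 Mb run, 8 of 137 MKN28 peaks overlapped an SNU216 peak (5.84%, 2.55 to 11.18), and this interval lay below the 13.3% of chromosome 22 outside the run and below the 17.1% of the list. In the region examined the count was 4 of 73 (5.48%, 1.51 to 13.4). This interval lay below 17.1% but held both chromosome 22 values, 12.5% and 13.3%. In the other direction all 6 SNU216 peaks overlapped an MKN28 peak (exact 95% interval 54.1 to 100%). The share was 59.3% over the whole SNU216 list and 69.4% (61.6 to 76.4) on the rest of chromosome 22. The interval of the 6 peaks held both values, and the part of MKN28 peak width in their overlap was not tested. These intervals treat neighbouring peaks as independent, which they are not.

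The SNU216 peaks lay in 3 places and were of ordinary width. A pair at 20884816 to 20885289 (474 bp, score 83.8) and 20885640 to 20885964 (325 bp, score 119) fell inside a single MKN28 peak of 2790 bp at 20884143 to 20886932, which scored 652. The MKN28 peak of score 1609 likewise contained an SNU216 pair, with scores of 69.2 and 236 and widths of 412 and 545 bp. The MKN28 peak of score 2095 contained an SNU216 peak of 584 bp that scored 354, the highest SNU216 score of the region. The last place was the CRKL start. All 6 SNU216 peaks lay wholly inside their MKN28 partners. The MKN28 partner was 3.40 to 8.58 times as wide, and each of the 6 ratios was at or above the 98.1 percentile of all 6841 pairs. The largest of the 6 was also the largest of all pairs, at a wide MKN28 peak that spanned 2 SNU216 peaks. The region was chosen by MKN28 width, so high width ratios were built in and these ranks are a description. Some MKN28 peaks entered more than 1 ratio. The score ratios of the same pairs had a median of 6.37, against 1.77 over all pairs.

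Along chromosome 22, the width of MKN28 peaks stood out around CRKL, in the region that these widths had been used to choose. In bins of 0.5 Mb counted from the CRKL start, the 3 bins from 0.5 Mb before to 1 Mb after the start had median relative widths of 2.41, 2.54 and 2.37, on 18 to 22 peaks each. The bin from 1 to 1.5 Mb after the start had 0.88 on 6 peaks. Of the 62 MKN28 bins with at least 5 peaks, 4 had a median of at least 1.5. The fourth lay 2.5 to 2 Mb before the CRKL start, with 1.59 on 23 peaks. In SNU216, 15 bins had at least 5 peaks, and their medians were between 0.81 and 1.08.

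**Figure D4:**
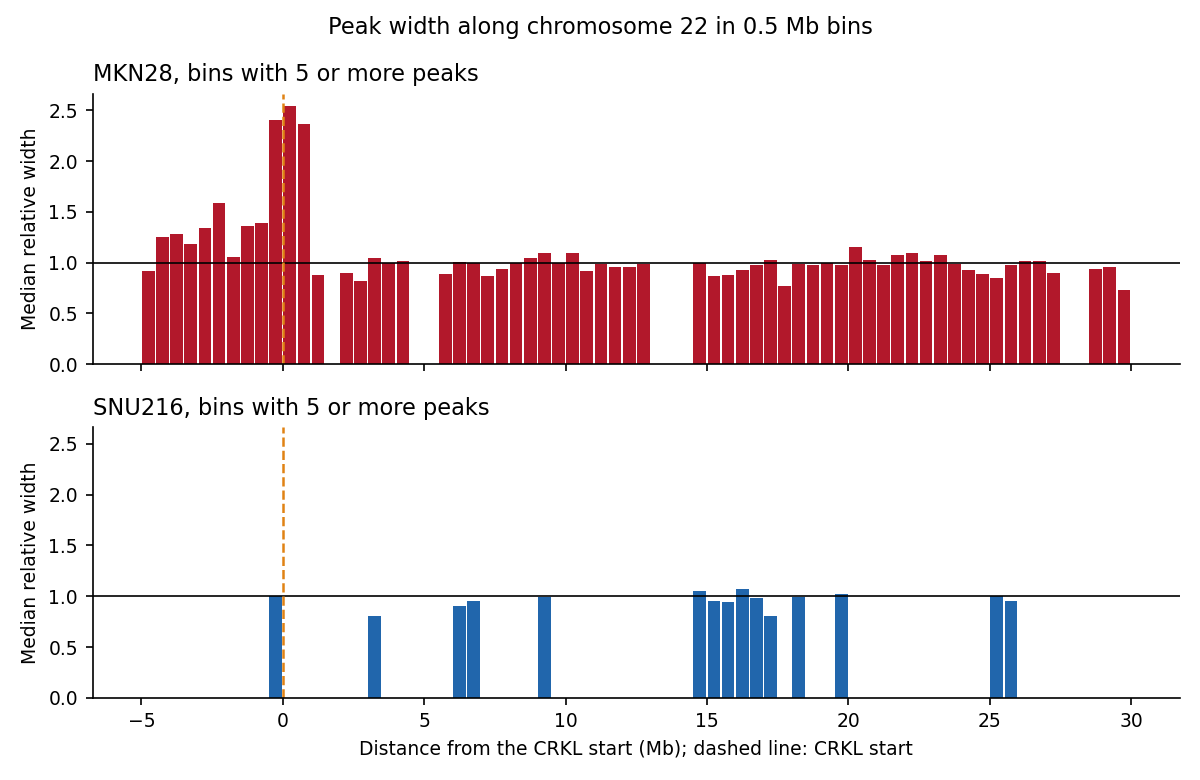
Median relative width of TEAD4 peaks in 0.5 Mb bins of chromosome 22 by distance from the CRKL start, for MKN28 (upper panel) and SNU216 (lower panel), for bins with at least 5 peaks. The 3 MKN28 bins next to the CRKL start stand between 2.37 and 2.54, and SNU216 bins stay between 0.81 and 1.08.

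The same search on every chromosome put this run first in the MKN28 list, which the choice of the region by MKN28 width favoured. Its sum of log2 relative width minus 0.5 was 59.0. The next MKN28 runs were on chromosome 8 (130924965 to 134895885), with a sum of 14.1 over 82 peaks and a median relative width of 1.55, and on chromosome 19 (48410318 to 48461216), with 8.62 over 14 peaks. The highest sum in the SNU216 list was 21.0, on chromosome 1 over 21 peaks, and chromosome 22 of SNU216 gave 0.30 on 1 peak far from CRKL. By the count of consecutive peaks over 1, the CRKL stretch came second, with 55 peaks against 56 in a stretch of chromosome 8 (131356659 to 134895885). The CRKL stretch was 1.07 Mb long with a median relative width of 2.59, against 3.54 Mb and 1.56 on chromosome 8. An SNU216 peak overlapped 8 of 137 peaks in the chromosome 22 run (5.84%, 2.55 to 11.18) and 18 of 82 in the chromosome 8 run (21.95%, 13.6 to 32.5). Of all MKN28 peaks, 17.1% had such an overlap, which is above the first interval and inside the second. Neighbouring peaks of 1 library are not independent and both runs were located by width, so these intervals do not test the runs against each other.

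**Figure D5:**
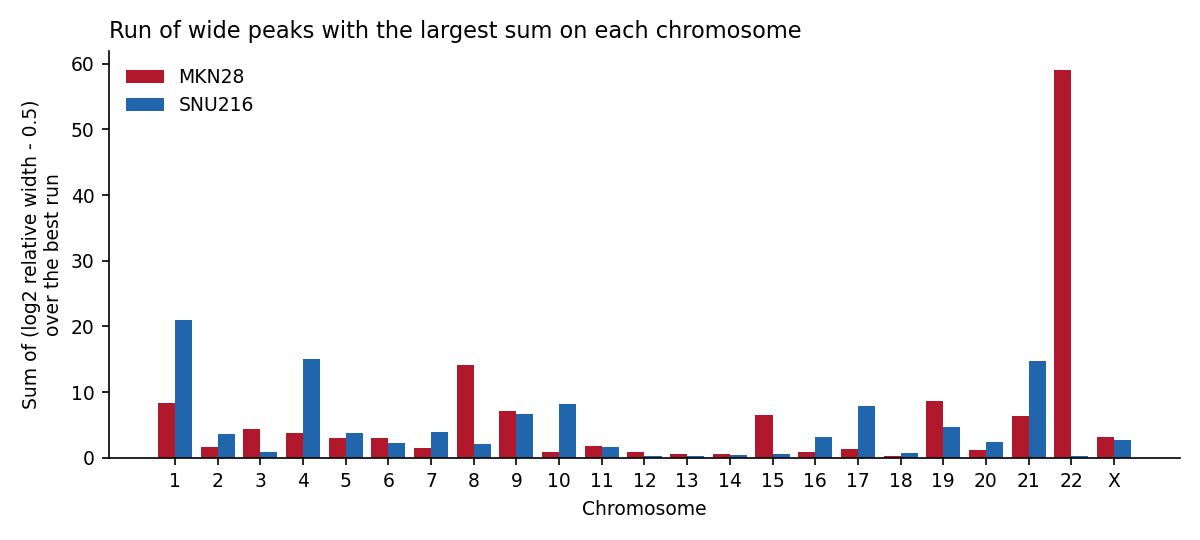
Largest sum of log2 relative width minus 0.5 over consecutive peaks, on each of chromosomes 1 to 22 and X, for MKN28 (red, left bar of each pair) and SNU216 (blue, right bar). Chromosome 22 of MKN28 reaches 59.0, and the next MKN28 bar, chromosome 8, reaches 14.1.

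The scores, density and widths of MKN28 peaks moved together in this stretch, and the part of each in the others was not tested. DNA copy number and the input libraries were not analysed here. An SNU216 site without a peak fell short of the authors' threshold and may still bind TEAD4.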

How the data were processed

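TEAD4 ChIP-seq was analysed in MKN28 and SNU216, with 1 TEAD4 library each; the 2 inputs entered as the authors' controls. Per the submitters' processing notes, CASAVA 1.8, Bowtie2 2.0.0, MACS and build hg19 were used, with no settings given. The authors deposited 1 peak list per line with a score per peak, whose scale is not stated and which rises with depth; the lowest was 50.00 in MKN28 and 50.01 in SNU216. Depth is unknown. Positions were made 1-based. The region, its members and the lists were chosen with earlier results of these data known. Relative widths, the run search, exact intervals, alternatives and bins were computed as the report describes with Python 3.11.15, numpy 2.4.6, pandas 2.3.3, scipy 1.17.1 and matplotlib 3.10.9. The run search was tested on simulated data. Bands came from circlize 0.4.16, and gene order and promoters from RefSeq GRCh38.p14, without conversion of coordinates. Genes named were the 4 of the region (CRKL, SNAP29, LZTR1, PI4KA) and their neighbours. Peaks named were those within 10 kb of CRKL, the 10 strongest of the run, 3 on each side of each edge, and SNU216 peaks inside. The planned list of CRKL pathway genes was not used, because no hg19 annotation was given.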

Additional observations from a re-analysis of the deposited data

How the results depend on the processing

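Of 8 settings of the run, the main one included, 6 had the distal edge at 21911681 and 3 the proximal edge at 18663654. Distal edges ranged from 21659748 to 21911681 and proximal edges from 17350091 to 21200679. The unbroken stretch ended at 21887779 with scores of at least 100 and at 21979219 with width relative to the whole-list median. With 20 score groups its end did not move. With 0.25 subtracted per peak the run had a median relative width of 1.51 and held 18 SNU216 peaks. With 0.75 subtracted it held 82 MKN28 peaks over 1686 kb, with a median of 2.33 and 6 SNU216 peaks. A running median of 5 gave 19 peaks over 459 kb, from 21200679 to 21659748, with a median of 2.56 and 1 SNU216 peak. With scores of at least 100, where fewer peaks remain by construction, the run held 84 MKN28 and 5 SNU216 peaks. Located in the region alone (added after seeing the data), it held 58 peaks over 1232 kb, with a median of 2.56 and 6 SNU216 peaks. The cause of these moves was not tested. Requiring 50% of both peaks to overlap gave 1.46% of the run and 0% of the unbroken stretch, which follows from wide peaks with narrow partners. Relative to the whole-list width, the stretch had a median of 2.82, over 58 peaks. Of 64 recomputed values, 45 stayed near the reported ones, which meant within 1.5 times for counts, lengths and the relative widths at CRKL, and within the exact 95% interval for medians and shares of peaks. No replicate could be left out, and no paired analysis was possible because each line has 1 library. Unknown depth limits every statement on peaks of 1 list.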

Other observations

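Before the unbroken stretch, the MKN28 run held single peaks that were wider still for their score. The peak at 18738363 to 18743347 was 4985 bp wide with a score of 149 and a relative width of 8.73, and the peak at 20423003 to 20426890 was 3888 bp wide with a score of 93.1 and a relative width of 7.73. Neither overlapped an SNU216 peak. In the same part of the run, the 82 MKN28 peaks had a median relative width of 1.42, and 61 of them were not wide. The 5 SNU216 peaks there had relative widths from 0.81 to 1.08.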
